A study of Mus musculus with 6 samples.

Results

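The miR-379/miR-410 cluster is a run of miRNA hairpins in the imprinted Dlk1-Dio3 region of mouse chromosome 12. Its members were taken from a list of 37 miRNA names: every mature miRNA of the deposited count table whose name, without species prefix, arm suffix and copy number, matched the list was kept. All 37 names were found, and they gave 73 of the 1952 mature miRNAs analysed. At least 1 read was counted for 66 of the 73, and 7 were at 0 in every library, among them both arms of miR-544. The hairpins lie on the plus strand at chr12:109709060-109743795 (mm10, positions from GENCODE M21), a span of 34736 bp that starts with miR-379 and ends with miR-410. The annotated non-coding gene Mirg (chr12:109729764-109749460) covers 13 of the 37: 4 lie inside an exon, 4 partly in an exon and 5 in introns, while the other 24 lie upstream of it.

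The libraries are small RNA libraries from heart, labelled cardiomyocyte, of C57BL/6 mice. Animals were either wild type or null for the long non-coding RNA lncSync (LncSync-/-), and were adults or embryos (e13.5, a stage counted from conception). Of the 6 libraries, 4 came from adults, 2 per genotype, and 2 from embryos, 1 per genotype. A miRNA table does not measure lncSync, so the genotype labels have no check here, and neither the age of the adults nor pooling of animals is stated.

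MicroRNAs are cut from hairpin precursors, each of which can give a mature RNA from its 5′ side (5p) and its 3′ side (3p), and they repress mRNAs that pair with the seed, bases 2 to 8. In mice the miR-379/miR-410 hairpins are expressed from the maternal chromosome, as parts of long transcripts that also hold the non-coding RNAs Meg3, Rian and Mirg. The cluster is best known from brain, where neuronal activity and Mef2 factors raise it and where miR-134 limits the growth of dendritic spines. In heart and muscle, miR-495 and miR-410 have been linked to cardiomyocyte proliferation through the co-regulator Cited2.

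RefSeq (GRCm38.p6) held the mature sequence of 69 of the 73 arms. The first set below gives the 10 arms of highest mean level over the 6 libraries, in order along the cluster. Capitals mark the seed, and each sequence reads 5′ to 3′.
miR-379-5p: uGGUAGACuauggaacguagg
miR-411-5p: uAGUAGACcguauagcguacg
miR-411-3p: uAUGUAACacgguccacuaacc
miR-495-3p: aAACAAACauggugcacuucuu
miR-300-3p: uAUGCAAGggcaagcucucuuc
miR-381-3p: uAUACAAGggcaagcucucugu
miR-382-5p: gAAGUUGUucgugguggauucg
miR-134-5p: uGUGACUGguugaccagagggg
miR-541-5p: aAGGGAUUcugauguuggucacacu
miR-409-3p: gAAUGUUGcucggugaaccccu

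The next set shows how alike some arms are, which limits how well their reads can be told apart. miR-376b-5p and miR-376c-5p differ at 1 base, miR-379-3p and miR-411-3p at 2, and miR-300-3p and miR-381-3p, both printed above, at 3 bases. How reads that fit several miRNAs were counted is not given in the sources used here, so single values of these arms are uncertain.
miR-376b-5p: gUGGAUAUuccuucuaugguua
miR-376c-5p: gUGGAUAUuccuucuauguuua
miR-379-3p: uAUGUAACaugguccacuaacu

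A last set shows arms of high and low GC content, the share of G and C bases, which the e13.5 genotype values follow. Over the 69 sequences it runs from 23.8% in miR-369-3p to 72.7% in miR-323-5p, an arm with 1 count summed over the 6 libraries. miR-667-5p has 68.0%, and the arms of miR-382 differ although they come from 1 hairpin: miR-382-5p, printed above, has 50% and miR-382-3p 36.4%.
miR-667-5p: cGGUGCUGguggagcagugagcacg
miR-369-3p: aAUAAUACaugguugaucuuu
miR-382-3p: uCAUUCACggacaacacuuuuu

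The first hairpin of the cluster, Mir379 (chr12:109709060-109709125), shows the layout that the members share, here with its 5p and 3p arms in capitals.
Mir379: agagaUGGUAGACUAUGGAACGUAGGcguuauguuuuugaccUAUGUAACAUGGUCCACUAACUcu

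Few seeds recurred. Among the 69 sequences there were 6 groups of 2 arms with the same seed, and no other mouse miRNA in the RefSeq table had any of the 6. The arms without a sequence there, miR-376c-3p, miR-487b-3p, miR-539-3p and miR-485-5p, were not searched, so further pairs may be missed. miR-379-5p shared GGUAGAC with miR-1193-5p, and miR-379-3p shared AUGUAAC with miR-411-3p. Shorter stretches recurred more often: of all runs of 5 bases, GGUUG stood in the most members, 12 of the 69 sequences (17.4%, 9 of them 5p arms), against 3.10% of all 1679 mature sequences in the table, the members included. It was searched as written on the mature strand, was chosen because it was the most frequent, and overlaps the next one, AGGUU, found in 10 members (14.5%, against 2.86%).

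Mature counts summed to between 14347091 and 17933518 in the adult libraries, 8944552 in the e13.5 wild-type and 2671957 in the e13.5 knockout library. The cardiac miRNA list (miR-1a, miR-133a and relatives) held 28.17% to 39.53% of mature counts in adults, 14.62% in wild-type embryos and 9.86% in knockout embryos. At e13.5 the smooth-muscle list (miR-143 and miR-145a) held more, 35.1% and 21.16%. Nearly all of that was 1 arm, miR-143-3p, with 3128355 counts in wild-type and 562999 in knockout embryos, against 10065 and 1999 for miR-145a-5p. The defining miRNAs of cardiomyocytes were thus present but did not dominate there. These are bulk libraries, in which fewer cells of a type and less RNA per cell cannot be told apart. Separate animals for the replicates are not stated in the labels, and a p-value here covers the scatter among these libraries only, which could be technical.

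Together, the miR-379/miR-410 arms took up a trace of the adult miRNA pool and a visible part of the embryonic one. Wild-type adults had 0.0294% and 0.0246% of their mature counts there, and knockout adults 0.01743% and 0.01824%. At e13.5 the share was 1.90% for the wild type (Wilson 95% interval 1.891 to 1.909) and 2.536% for the knockout (2.517 to 2.555). Both e13.5 libraries lay far above all 4 adult ones, 2.22% ± 0.45 (SD, n = 2) against 0.0224% ± 0.00565 (SD, n = 4). Each SD, here and below, is taken over both genotypes, so it is not the scatter of replicates alone. Intervals cover counting error only.

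A few arms made up most of this signal at e13.5. In e13.5 wild type miR-379-5p, miR-541-5p, miR-411-5p and miR-381-3p made up 81.8% of the cluster's counts. In e13.5 knockout miR-541-5p, miR-379-5p, miR-411-5p and miR-409-3p made up 77.9%. In the adult libraries the 4 leading arms held 55.8% to 65.3%, and miR-379-5p, miR-411-5p and miR-541-5p were the first 3 in each of them. Across the 37 hairpins the order of levels was similar in the 2 e13.5 libraries (Spearman rho 0.925) and, less so, between e13.5 wild type and the adult mean (0.811). Order along the chromosome showed no such relation with the e13.5 wild-type level (rho −0.0984). These coefficients describe 37 hairpins that share libraries and are given without a test.

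**Figure D1:**
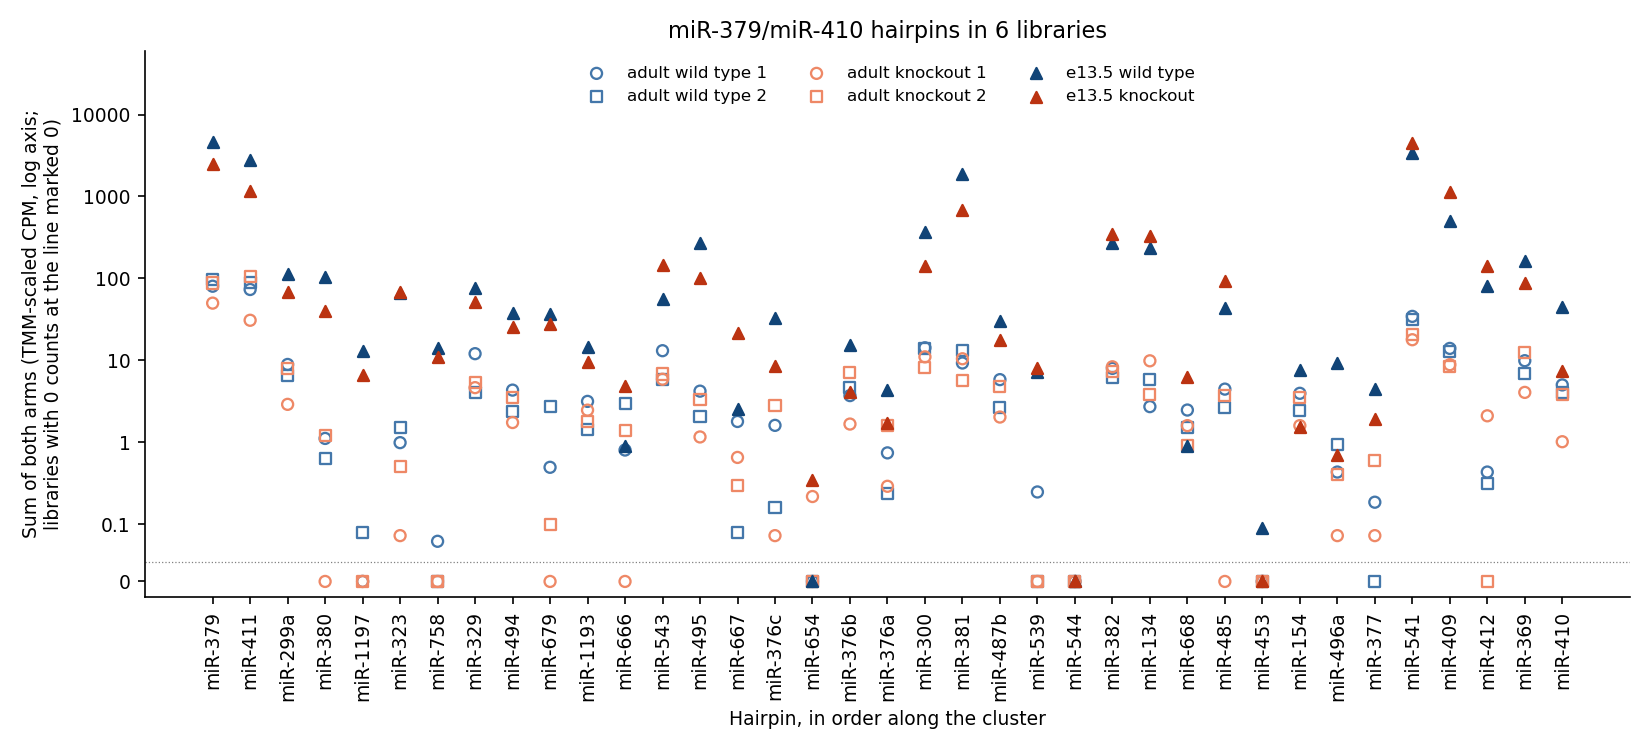
Summed level of both arms of each of the 37 hairpins, in order along the cluster (x axis), in TMM-scaled CPM (counts relative to an adjusted library size) on a log axis (y axis), 1 point per library; open points are adult and filled triangles e13.5 libraries. The high hairpins, miR-379, miR-411, miR-381 and miR-541, stand at both ends and in the middle of the cluster, and miR-544 is at 0 in every library.

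The main contrast of the design, e13.5 against adult, asks how the cardiac miRNA pool differs between the embryo and the adult. Of the 73 arms, 53 passed the filter on low counts and were tested: 40 were higher at e13.5, 0 were lower and 13 did not pass (edgeR quasi-likelihood test over 6 libraries, Benjamini-Hochberg adjusted p under 0.05). Over all 679 miRNAs tested, 29.3% were called higher and 28.4% lower. The members' median log2 fold was 4.24, against −0.06 over all miRNAs tested. An arm can pass the filter through its e13.5 counts alone, so the count was repeated on the miRNAs that pass in the adult libraries by themselves: 28 of 37 arms were higher, against a background of 22.1% (35.8% lower), with a median log2 fold of 3.65 against −1.19.

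Levels are given below as CPM, counts relative to library sizes that TMM factors adjust over the 6 libraries, and embryos are the e13.5 libraries. miR-541-5p was at 34.2 and 31.6 CPM in wild-type adults, 17.8 and 20.5 in knockout adults, 3423 in wild-type embryos and 4446 in knockout embryos. The stages did not overlap, and the log2 fold was 7.32 (SE 0.49, adjusted p = 5.7e-05). miR-379-5p, from the first hairpin, was at 74.2 and 90.5 CPM in wild-type adults, 47.1 and 81.2 in knockout adults, 4567 in wild-type embryos and 2489 in knockout embryos. Its log2 fold was 5.54 (SE 0.46), again with every e13.5 value above every adult one.

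miR-411-5p, from the neighbouring hairpin, was at 59.7 and 76.7 CPM in wild-type adults, 28.7 and 92.1 in knockout adults, 2667 in wild-type embryos and 1120 in knockout embryos (log2 fold 4.79, SE 0.57). It and miR-379-5p were thus the highest arms in adults, and both were still higher at e13.5. miR-381-3p was at 9.09 and 13.2 CPM in wild-type adults, 10.4 and 5.61 in knockout adults, 1866 in wild-type embryos and 680 in knockout embryos. Its log2 fold of 6.92 (SE 0.54) exceeded that of its near relative miR-300-3p, at 4.30 (SE 0.47), by a margin that was not itself tested. miR-300-3p went from 11.7 ± 2.69 (SD, n = 4) CPM in adults to 357.5 in wild-type embryos and 140.7 in knockout embryos.

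The remaining abundant arms were higher at e13.5 as well. miR-409-3p went from 9.01 ± 2.44 (SD, n = 4) CPM in adults to 435 in wild-type embryos and 1075 in knockout embryos (log2 fold 6.40, SE 0.59). miR-495-3p, one of the Cited2-linked pair, went from 2.68 ± 1.34 to 273 and 100.8 CPM (log2 fold 6.00, SE 0.63). miR-134-5p, the dendritic-spine miRNA, went from 5.44 ± 3.22 to 233 and 329 CPM (5.71, SE 0.60). For miR-382-5p the adult level was 4.84 ± 2.30 CPM and the e13.5 levels were 142 and 282 CPM (5.40, SE 0.53), and for miR-411-3p they were 10.2 ± 5.49, then 137.5 and 57.0 CPM (3.17, SE 0.68).

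Of the 6 highest log2 folds among arms with a mean of at least 10 CPM, those of miR-541-5p and miR-381-3p are given above, and the other 4 belonged to arms with few or no reads in each adult library. miR-380-5p had 3, 4, 0 and 1 counts in the 4 adult libraries, against 737 in wild-type embryos and 204 in knockout embryos, a log2 fold of 8.50 (SE 0.79, adjusted p = 9.1e-05). miR-412-5p had 7, 4, 29 and 0 adult counts, against 880 and 799 (7.32, SE 1.04). miR-323-3p had 16, 19, 1 and 5 adult counts, against 732 and 391 (6.81, SE 0.81), and miR-485-5p 18, 16, 0 and 3, against 213 and 398 (6.63, SE 1.25). Folds of this kind lean on few adult reads.

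In the adult libraries 16 of the 73 arms had no read: 7 of them had none at e13.5 either, 6 stayed under 10 counts there and 3 reached at least 10 in an e13.5 library. For these 3, against a floor of 3 counts over the 4 adult libraries, the pooled e13.5 level of miR-412-3p was at least 46.8-fold higher (26 counts in wild-type and 19 in knockout embryos), that of miR-667-5p at least 67.5-fold higher and that of miR-410-5p at least 17.7-fold higher. The e13.5 libraries differed for the last 2: miR-667-5p had 5 counts in wild-type embryos, at least 7.9-fold higher, and 60 in knockout embryos, at least 182-fold higher. miR-410-5p had 16 counts in wild-type embryos, at least 25.3-fold higher, and 1 in knockout embryos. The last hairpin of the cluster, miR-410, gave mostly its 3p arm, the other Cited2-linked miRNA. miR-410-3p was at 5.01 and 4.10 CPM in wild-type adults, 1.02 and 3.80 in knockout adults, 42.8 in wild-type embryos and 7.26 in knockout embryos (log2 fold 2.51, SE 0.71, adjusted p = 0.0163). Its stages did not overlap, but the e13.5 knockout value lay near the adult ones.

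Not every arm was higher. Both e13.5 libraries lay above all 4 adult ones for 44 of the 53 tested arms (background 37.1%), the stages overlapped for 9, and no arm lay below (background 37.3%). Arms that pass the filter through their e13.5 counts alone are among the 53, where such an order is nearly given. This count was not repeated on the arms that pass in adults. Among the 13 that did not pass, miR-379-3p had a log2 fold of 1.11 (SE 0.72, adjusted p = 0.205), well under the 5.54 of the 5p arm of the same hairpin. miR-666-3p had 11, 32, 0 and 13 adult counts and 0 at e13.5, with a fitted log2 fold of −6.86 and an adjusted p of 0.0835, and it passed as lower without the adult knockout replicate 1, without the low-count filter and in the wild-type libraries alone. miR-666-3p was chosen after its values were seen.

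**Figure D2:**
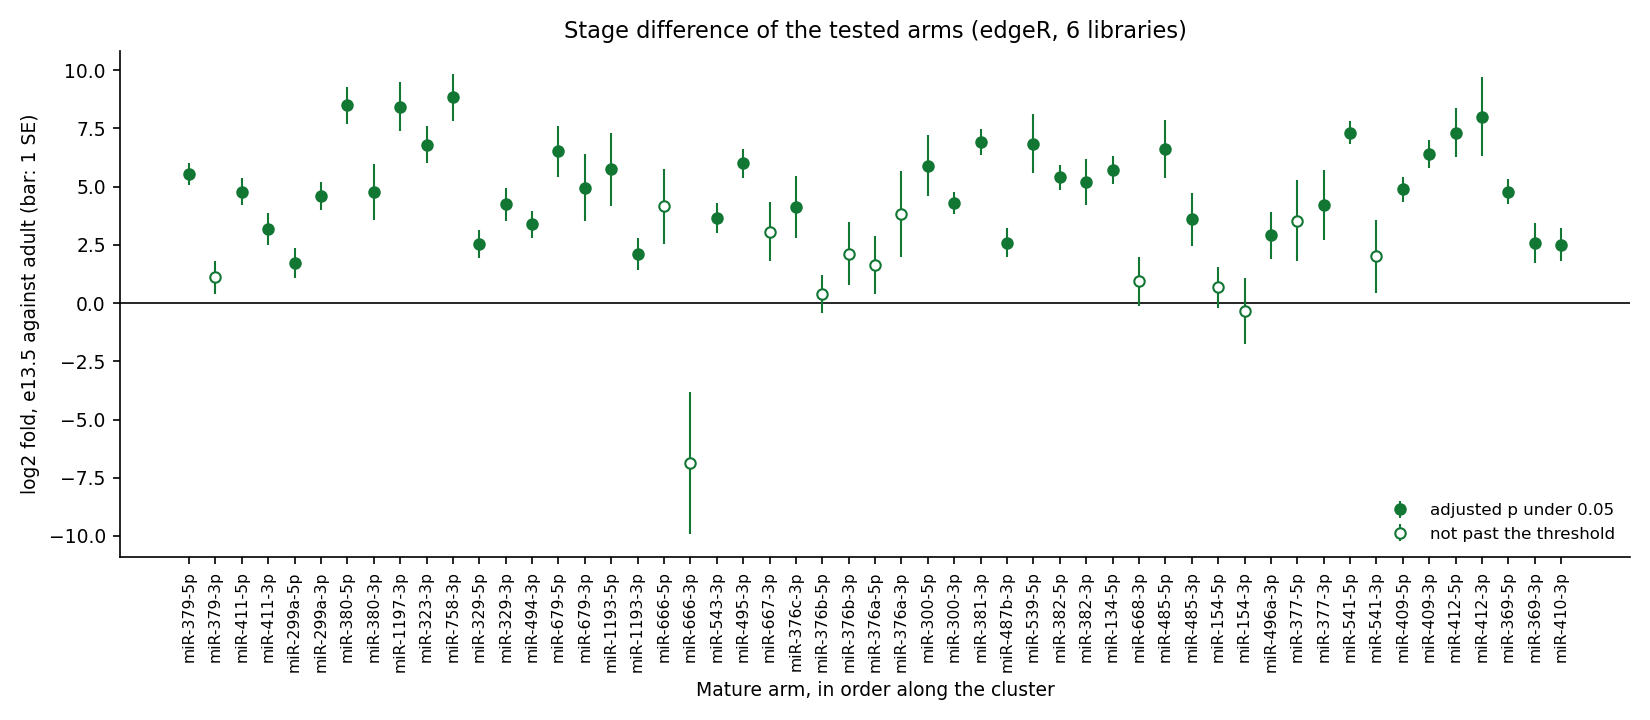
log2 fold of e13.5 against adult libraries (y axis, bars 1 SE) for the 53 tested arms in order along the cluster (x axis); filled points passed an adjusted p of 0.05 and open points did not. The 40 filled points all lie above 0, and miR-666-3p is the open point at −6.86.

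Other miRNAs and marker lists moved with stage as well. Of the other miRNAs of the Dlk1-Dio3 region, 19 of 25 tested arms were higher at e13.5 and 1 was lower, and the subset made antisense to Rtl1, which includes miR-127 and miR-434, was higher in 10 of 10. Epithelial miRNAs (the miR-200 family) were higher in 6 of 7 tested, with a summed level of 43.1 to 72.5 CPM in adults and 942.1 to 1171 at e13.5. Cardiac miRNAs were lower in 8 of 10 and higher in 1, with sums of 293000 to 696600 CPM in adults and 45530 to 117700 at e13.5. Most of the e13.5 sum was miR-1a-3p, which was not called (log2 fold −1.54, SE 0.75). Neuronal miRNAs, which matter here because the cluster is high in brain, were higher in 2 of 12 and lower in 2, with a median log2 fold of −0.42. Their sum was 1778 to 1988 CPM in adults and 2640 to 5291 at e13.5, and 6 of the 23 listed had no e13.5 count. A large part of the e13.5 sum was miR-218-5p, at 4225 CPM in wild-type and 1349 in knockout embryos, against 126.4 to 270.1 in adults. Leukocyte miRNAs stood at 2848 to 3277 CPM in adults and 376.8 to 396.1 at e13.5, endothelial miRNAs at 17150 to 54750 and 7547 to 15300, and mesenchymal miRNAs at 2315 to 4110 and 1490 to 3812. Erythroid miRNAs were higher in 2 of 5 and lower in 2, with summed levels of 9959 to 23170 CPM in adults and 602.8 to 6613 at e13.5. Most of the adult sum was miR-486a-5p (log2 fold −3.75, SE 0.93), while miR-451a went the other way (2.76, SE 0.77). Smooth-muscle miRNAs were higher in 0 of 4 and lower in 2. Their sums, mostly miR-143-3p (log2 fold 0.60, SE 0.55), were 78840 to 171400 and 97730 to 282800 CPM. The part of these shifts in the members' difference was not tested.

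The second question is whether loss of lncSync changes the cluster in adult hearts. None of the 37 arms tested was called (edgeR quasi-likelihood test on the 4 adult libraries), none had an unadjusted p under 0.05, and DESeq2 and limma also called 0. The background was small too: 0.735% of 544 miRNAs were called lower and 0.0% higher. Of the 37 arms 30 had a log2 fold below 0 and 7 above, where 237 of all 544 miRNAs were below and 307 above. The median was −0.35 against 0.08 over all miRNAs tested. These arms share the same 4 libraries, so their signs are not separate observations. Both knockout libraries lay below both wild types for 7 arms and above for 0, where the background was 15.4% and 8.09%.

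How far the knockout replicates differed depended on the scaling. The summed cluster level was 325.9 and 325.7 TMM-scaled CPM in the adult wild types, 181.3 in knockout replicate 1 and 321.4 in knockout replicate 2, but as a share of mature counts, given above, the knockouts were close to each other and both below the wild types. For miR-411-5p the TMM-scaled values of 28.7 and 92.1 CPM lay below and above both wild types. By library totals it was at 27.6 and 52.2 CPM, against 53.8 and 57.9 in the wild types, so both knockouts were then below. Erythroid miRNAs also differed between these replicates, at 23170 and 9959 CPM, against 17410 and 13750 in the wild types, and their part was not tested. Without knockout replicate 2, 3 of 40 arms passed as lower, miR-382-3p, miR-411-3p and miR-485-3p (background 5.12% lower, 2.17% higher). Without replicate 1, none of 39 did (1.49% lower, 4.31% higher), and the median log2 fold was −0.09. Each of these fits leaves 1 knockout library, which is assumed to vary like the wild types.

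By the smallest p, the lowest arms were miR-485-5p, miR-541-5p and miR-299a-5p. miR-485-5p had 18 and 16 counts in the wild types and 0 and 3 in the knockouts, which edgeR fitted at −2.95 (log2, SE 1.78) with an adjusted p of 0.999. miR-541-5p, at the CPM values given above, had a log2 fold of −0.72 (SE 0.45), and miR-299a-5p, at 5.69 and 3.55 against 1.31 and 2.90 CPM, one of −1.08 (SE 0.75). In these 3 both knockouts lay below both wild types. On the other side miR-134-5p had a log2 fold of 0.80 (SE 0.74), miR-382-5p 0.67 (SE 0.67) and miR-376c-3p 0.62 (SE 1.79), with overlapping genotypes in each. The first 2 were at −0.09 and −0.12 without knockout replicate 1.

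A genotype term over both stages, with 3 libraries per genotype, called none of 53 arms (background 0.736% lower, 0.0% higher). No arm had an unadjusted p under 0.05, and DESeq2 and limma called 0. The smallest p on the lower side belonged to miR-496a-3p (log2 fold −2.35, SE 1.05), miR-679-5p (−2.31, SE 1.11) and miR-410-3p (−1.47, SE 0.71), and on the higher side to miR-382-5p (0.74, SE 0.49), miR-412-5p (1.21, SE 0.95) and miR-134-5p (0.65, SE 0.54), all at an edgeR adjusted p of 0.989.

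Whether the genotype difference changes with stage was tested as an interaction. It called none of 56 arms (edgeR; background 0.0% in either direction of 769 miRNAs), with 2 at an unadjusted p under 0.05, and DESeq2 and limma called 0. Those 2 were miR-485-5p (log2 difference of 4.89, SE 1.65, adjusted p = 0.76) and miR-409-3p (2.0, SE 0.83, adjusted p = 0.767). Each e13.5 group has 1 library, which the model assumes to vary like the adult ones. The count changed with the adult knockouts. Without replicate 1, 3 arms passed as higher and 3 as lower (background 4.75% and 7.06%), and without replicate 2, 4 passed as higher and 0 as lower (4.52% and 0.797%). miR-485-5p and miR-409-3p were in both sets. In both fits only the adult wild types are replicated.

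The third question is the effect of lncSync loss at e13.5, where 1 library stands for each genotype, and the values are given as a description without a test of their own. Over the 52 arms with at least 10 counts in either library, 4 were at least 4-fold higher in the knockout and 7 at least 4-fold lower, where 8.14% and 9.20% of all 565 miRNAs were. The median log2 fold was −0.79 for the members and −0.41 over all miRNAs. Scaling moves these values: by library totals the medians were 0.00 and 0.36, with 7 arms at least 4-fold higher and 2 lower (background 14.3% and 4.6%). Relative to all miRNAs the members' median was −0.38 with TMM and −0.36 with totals. The sum over the cluster changed direction with the scale, from 15300 CPM in wild type to 11710 in knockout, but from 1.90% to 2.536% of mature counts.

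Arms of the cluster differed in direction between the e13.5 libraries. miR-381-3p, at 1866 CPM in wild type and 680 in knockout, had a ratio of 0.365 (95% counting interval 0.352 to 0.377). miR-495-3p had a ratio of 0.369 (0.337 to 0.403), miR-300-3p 0.394 (0.365 to 0.424), miR-411-5p 0.420 (0.409 to 0.431) and miR-379-5p 0.545 (0.535 to 0.555). On the other side miR-543-3p, at 55.7 CPM in wild type and 144.7 in knockout, had a ratio of 2.60 (2.34 to 2.88). miR-409-3p had a ratio of 2.47 (2.38 to 2.57), miR-382-5p 1.98 (1.85 to 2.13), miR-412-5p 1.74 (1.58 to 1.92) and miR-134-5p 1.41 (1.328 to 1.496). By library totals each of these 10 kept its direction, although miR-379-5p came to a log2 fold of −0.07. The intervals cover counting error in these 2 libraries and say nothing of the spread between animals.

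The e13.5 log2 folds of the members followed their base composition. All 11 arms under 40% GC were lower in the knockout, with a median log2 fold of −1.85. Of 22 arms from 40% to under 50%, 6 were higher and 16 lower, with a median of −0.84. At 50% or more, 11 of 16 were higher, with a median of 0.37. By library totals all 11, 12 of 22 and 2 of 16 arms in these bands were lower, with medians of −1.05, −0.05 and 1.12. Among other miRNAs the medians with TMM were −1.15, −0.69 and 0.26. Of these, 67 of 79 were lower under 40% and 116 of 149 from 40% to under 50%. At 50% or more, 111 of 198 were higher.

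Among the sequences printed above, miR-667-5p, at 68.0% GC, had 5 counts in wild type and 60 in knockout, a log2 fold of 3.95, and miR-369-3p, at 23.8%, had 594 and 85, a log2 fold of −1.85. The arms of miR-382, cut from 1 precursor, also parted, at 0.99 for the 5p and −1.03 for the 3p arm. Over 16 hairpins with both arms measured and unequal GC, the arm of higher GC had the higher log2 fold in 12, by a median of 0.80; over 94 other hairpins it did so in 69, by a median of 0.66.

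Across 49 of the 52 arms, those with a sequence, GC content and the e13.5 log2 fold had a Pearson r of 0.776 and a Spearman rho of 0.709. For 426 other miRNAs the coefficients were 0.43 and 0.534, and for 23 other Dlk1-Dio3 arms 0.785 and 0.773. All points share the same pair of libraries, so these are descriptions without a test. Between the adult knockout replicates, which have 1 genotype, r was 0.338 over 38 arms, and between the adult wild types −0.201. Erythroid miRNAs stood at 602.8 CPM in wild-type embryos and 6613 in knockout embryos, and the knockout library was the shallowest of the 6. The part of GC content, erythroid RNA and depth in the genotype difference was not tested, and with 1 library per genotype library and genotype cannot be told apart.

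The other Dlk1-Dio3 miRNAs had a higher GC content, with a median of 56.5% against 45.5% for the miR-379/miR-410 arms, and their median e13.5 log2 fold was 0.21 with TMM and 0.99 by library totals. The cluster held 4.45 times their counts in wild-type embryos, 1.55 times in knockout embryos and 1.36 to 1.5 times in the adult libraries.

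**Figure D3:**
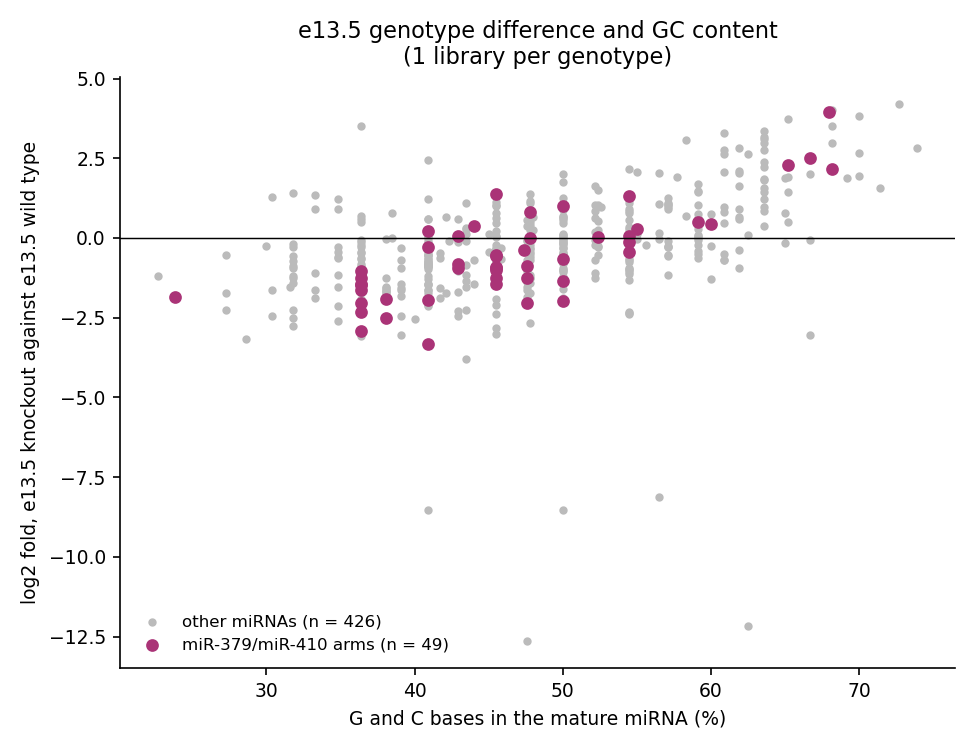
log2 fold of e13.5 knockout against e13.5 wild type (y axis) by the share of G and C bases in the mature miRNA (x axis), for 49 miR-379/miR-410 arms and 426 other miRNAs, 1 point per miRNA and 1 library per genotype. All 11 member arms under 40% lie below 0, and the member at the top right is miR-667-5p.

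Arm use can be read within a library and needs no scaling between libraries. Of 28 hairpins with at least 20 counts in both e13.5 libraries, 16 gave at least 90% of their counts from 1 arm in both. In 10 the 5p arm led in both and in 16 the 3p arm. In the libraries with at least 20 counts, the 5p arm made up 81.5% or more of miR-379, miR-411, miR-134 and miR-541, and at most 3.26% of miR-494, miR-495, miR-300, miR-381, miR-487b and miR-410, at both stages.

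The 5p share could be compared between stages for 20 hairpins, and its ranges did not overlap for 8, where the background was 51.8% of 197 hairpins. In miR-299a the 5p arm made up 63.9% and 54.9% of counts in wild-type adults, 45.0% and 36.7% in knockout adults, but 13.1% and 10.6% at e13.5. In miR-329 the leading arm itself differed: the 5p share was 56.9% to 82.8% in adults and 44.2% and 33.3% at e13.5. For miR-379 it went from 92.4% to 94.5% in adults up to 99.5% and 99.8%.

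In some hairpins single libraries stood apart instead. The 5p share of miR-382 was 99.1% in adult knockout replicate 1 and 81.5% in knockout embryos, against 47.2% to 60.8% in the other 4 libraries. The 5p arm is the one of higher GC, as it is in miR-369, where the same libraries were the highest at 73.2% and 83.1%. Not all hairpins did so. In miR-329 the 5p arm also has the higher GC, but its share was lowest in knockout embryos (33.3%), while highest in adult knockout replicate 1 (82.8%). In miR-409 the 5p arm has the lower GC, and its share was highest in that replicate (22.1%) and lowest in knockout embryos (5.33%). In miR-485 the e13.5 knockout was at 73.3% and the e13.5 wild type at 44.6%. These shares are descriptions, with Wilson 95% intervals drawn in the plot of arm use.

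**Figure D4:**
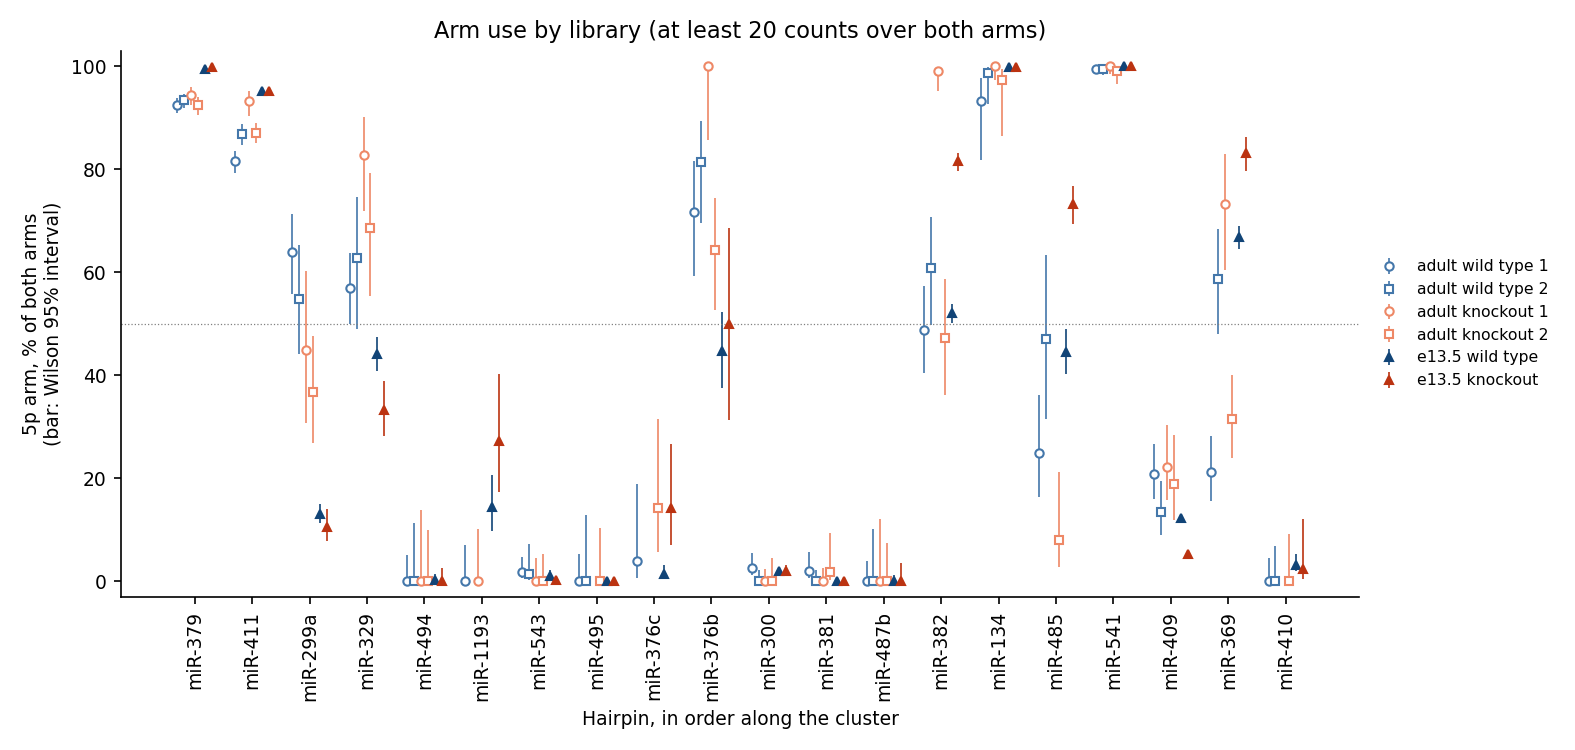
Share of the 5p arm in the counts of both arms (y axis, percent, bars Wilson 95% intervals) for the 20 hairpins with at least 20 counts in both e13.5 and at least 2 adult libraries (x axis, in order along the cluster), 1 point per library. miR-299a and miR-329 have lower 5p shares at e13.5 than in adults, and miR-382 is highest in adult knockout replicate 1 and e13.5 knockout.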

How the data were processed

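Small RNA libraries were built with the NEXTFLEX kit, per the labels' protocols. Counts were deposited as a single table of raw, unnormalised reads for each miRNA in 6 libraries. The submitters' processing notes name mm10 as the build. For the aligner, adapter trimming and the counting of multiply fitting reads, details were not given in the sources used here. Of 3208 features, 1234 hairpin rows were set aside. Of 1974 mature rows, 22 with counts within 1% of another were merged, which put the miR-299b arms with miR-299a. All miRNAs were fitted together with edgeR 4.0.16 in R 4.3.3 (TMM, filterByExpr minimum count 10, glmQLFTest, two-sided, Benjamini-Hochberg over all features tested); only members are printed. DESeq2 1.42.0 and limma 3.58.1 were alternatives. The e13.5 genotypes were compared without a test, with a prior count of 2. The fits were tested on simulated data.

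The members, lists and tests were chosen with earlier results of these data known. Named arms were the 10 of highest mean CPM, the 6 largest stage folds at a mean of at least 10 CPM, the 3 smallest p in each direction of each genotype test, the 5 largest e13.5 folds in each direction at a mean of at least 100 CPM, and miR-379 and miR-410. Other arms, named for base composition, arm use, a count of 0 or a call lost or gained, were chosen after their values were seen.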

Additional observations from a re-analysis of the deposited data

Results flagged for a closer look

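The deposited table counts whole hairpins beside their arms, and hairpin counts beyond the sum of the listed arms were not used in the comparisons. For miR-485 such counts made up 3.21% of hairpin counts in the e13.5 knockout library (18 of 561, Wilson 95% interval 2.04 to 5.01), against 0.417% in e13.5 wild type (2 of 480, 0.114 to 1.51). For miR-300 they made up 0.599% in e13.5 knockout (5 of 835, 0.256 to 1.39), against 0.0247% in e13.5 wild type (1 of 4049, 0.00436 to 0.14). Both exceed the level in the wild-type library, and so did some other hairpins on few counts. For miR-380 such counts were 3 of 235 in e13.5 knockout and 0 of 1164 in e13.5 wild type, and for miR-541 7 of 25733 and 4 of 38024. Others went the other way: for miR-412 such counts were 8 of 826 in e13.5 knockout and 19 of 925 in e13.5 wild type, and for miR-377 they were 10 of 21 and 61 of 111. There is 1 library per genotype at e13.5, so the difference has no replicate check.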

How the results depend on the processing

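The stage result held: 29 to 46 arms were called under 16 alternatives (other tests, scalings, filters and samples, and each library left out in turn) against 40, and 25 arms were called in all of them. The share of all miRNAs called higher ran from 16.0% without the e13.5 wild type to 38.7% with library totals, and the share called lower from 13.7% (knockout libraries alone) to 33.1% (limma). Relative to the median of all miRNAs the members' median stayed between 3.93 and 5.35. Scaling shifted the median of all miRNAs from −0.06 to 0.72 with median-of-ratios factors and to 0.93 with library totals. The numbers of arms called under these alternatives include arms that are kept through their e13.5 counts alone.

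The adult genotype count went from 0 to 3 without adult knockout replicate 2 and stayed at 0 under the other 11 alternatives. The interaction count went from 0 to 6 without adult knockout replicate 1 and to 4 without replicate 2. The difference between replicates 1 and 2 was uncorrelated between adult wild type and adult knockout (r = 0.0091 over 544 miRNAs). With 1 such difference per genotype, this cannot settle whether same-numbered libraries were paired. With a replicate block 0 arms were called. The e13.5 median log2 fold was −0.65 with median-of-ratios factors, 0.00 with library totals and −0.98 with TMM factors computed without the cluster. With miR-143-3p, the miRNA of highest mean share over the 6 libraries, left out of the total, the cluster's share was 0.01951% in adult knockout, 2.921% in e13.5 wild type and 3.213% in e13.5 knockout.

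Single arms were followed through the alternatives only where they were named for a comparison, mostly abundant arms or those of large fold. For the arms named in the stage comparison, 247 values kept their direction and side of the threshold, 4 lost the call and 5 gained it. Among these named arms, direction changed only in genotype comparisons, where no arm had passed. The values span the leaving out of each library in turn, and arms not named were not followed in this way. Adult log2 folds ran from −0.09 to 1.37 for miR-134-5p, both ends without 1 library (knockout replicate 1 and wild-type replicate 2), from −0.12 to 1.1 for miR-382-5p (without knockout replicates 1 and 2) and from −3.40 to 3.83 for miR-376c-3p (without knockout replicate 2 and wild-type replicate 1). That of miR-376c-3p was also −0.01 with library totals and −0.41 without wild-type replicate 2. Over both stages miR-412-5p ran from −0.12 to 1.54 (without adult knockout replicates 1 and 2), and the interaction of miR-380-3p from −3.80 to 2.96 (likewise). The cause was not tested. Depth limits the rare arms most: 3 counts, the limit that a count of 0 allows, are 0.1673 to 0.2091 CPM of library totals in adults, 0.3354 in e13.5 wild type and 1.123 in e13.5 knockout.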
